A study of Mus musculus with 4 samples.

Results

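Translation factors carry the ribosome from the cap of an mRNA to its start codon and then along the coding sequence. All genes named *Eif* plus a digit, *Eef1* or *Eef2* were taken from 2 deposited expression tables of female mouse embryonic stem cells (ESCs), with *Eif1a* left out. Of 50 such genes, 1 had a failed estimate in a table, and 49 of the 9779 genes with values remained. By name 41 were *Eif* and 8 were *Eef* genes, with kinases and inhibitors of the factors among them. In all, 15 listed factors of the same families, the failed one included, were not analysed here. The cells were LF2, a female line of strain 129/J, kept on feeder cells and passaged without them before use. They received PBS or L-ascorbic acid (AA) at 50 µg/ml, each with DMSO or with GSK-J4 at 10 µM for 24 hr. GSK-J4 is an inhibitor of the H3K27 demethylases. The authors also reported raised H3K4me3 at the induced genes they examined, and concluded that GSK-J4 inhibits H3K4 demethylation too. The conditions were PBS+DMSO, PBS+GSK-J4, AA+DMSO and AA+GSK-J4, all in cells of that genotype and each measured once as total RNA. With 1 library per condition there was no replicate error, so no test was made and every difference below is one between 2 libraries.

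Initiation starts when eIF2 bound to GTP brings the initiator tRNA to the small ribosomal subunit, while eIF4F holds the mRNA cap and unwinds the leader. eIF2 leaves as the GDP form and is recharged by eIF2B, a step blocked when kinases of the *Eif2ak* family phosphorylate eIF2. The 4E-BP proteins (*Eif4ebp*) keep eIF4E from the cap complex unless mTOR phosphorylates them, and in elongation eEF1 delivers each aminoacyl-tRNA and eEF2 moves the ribosome on.

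Expression is given as FPKM, fragments scaled to transcript length and to the mapped total of a library, and the groups of coding sequences that share a gene were added up. Ratios are log2 of (FPKM + 1) over (FPKM + 1), which understates the change of low genes, where at least 1 of the compared libraries reached an FPKM of 1. A gene was called higher or lower when the 2 libraries differed at least 2-fold on that scale, and "rose" and "fell" are used for called genes alone. The ESC markers with values lay between 37.4 and 867 FPKM in all 4 libraries. All 8 were below 0 with GSK-J4, with medians of -0.65 without and -0.67 with AA. Of all genes in the highest decile by mean expression, 90.3% and 89.1% were below 0, with medians of -0.58 and -0.53. The part of the ESC markers in the results below was not tested. Of 7 feeder markers 3 had values, from 1.78 to 4.28 FPKM, and their sum was 7.54 to 8.85 per library, against a members' median of 60.4 to 84.3. Summed FPKM over all genes was 360621, 275575, 342327 and 271205 in PBS+DMSO, PBS+GSK-J4, AA+DMSO and AA+GSK-J4, the order used for every run of 4 values below. The scaling between libraries is not given in the sources used here, so fewer transcripts of a gene and another scale cannot be told apart from a single ratio.

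The members were abundant mRNAs. In PBS+DMSO 43 of 49 lay above an FPKM of 20, and 29 were in the highest decile of all genes by mean expression. Together they held 3.94%, 3.85%, 3.78% and 4.07% of summed FPKM, and 2.61%, 2.45%, 2.56% and 2.50% without *Eef1a1*. *Eef1a1*, the carrier of aminoacyl-tRNA, was the highest member in each library and alone held 1.33%, 1.40%, 1.22% and 1.57% of the total. The next levels by mean FPKM were those of *Eef2*, the translocase, *Eif4a1*, the cap-complex helicase, and *Eef1g* and *Eef1b2*, subunits of the eEF1 exchange complex. At the other end were *Eef1a2*, the muscle and neuron paralog of *Eef1a1*, and *Eif4e1b*, an oocyte paralog of *Eif4e*, which no library listed above 2.94 and 1.18 FPKM.

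**Figure D1:**
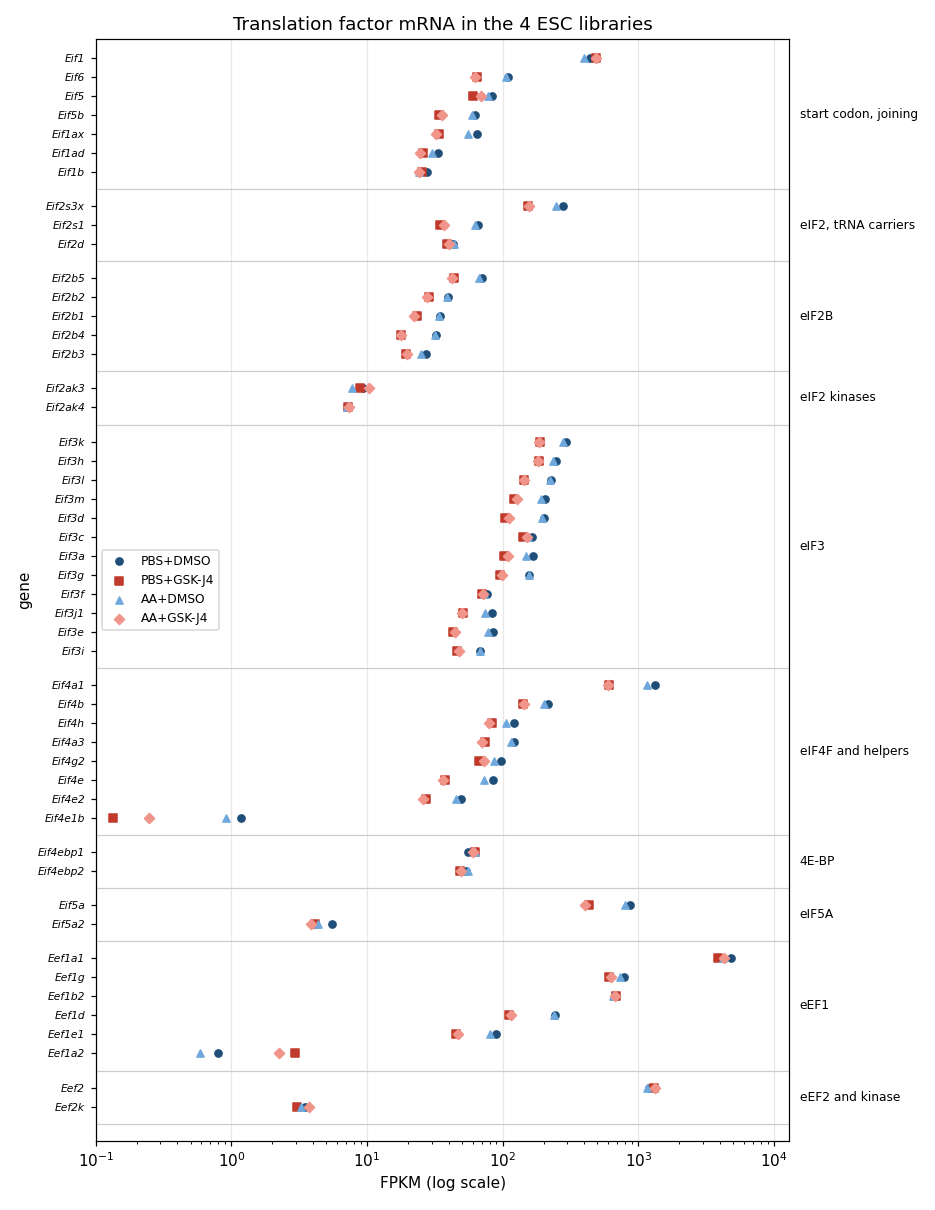
FPKM of the 49 members (log axis) in the 4 libraries, 1 marker per library, grouped by role and ordered by mean level within a role. In the eIF3 and eIF4F groups the GSK-J4 markers lie left of the DMSO markers, while those of *Eef2*, *Eef1b2* and *Eif1* lie close together or right of them.

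GSK-J4 without AA was compared with PBS+DMSO to ask how the demethylase inhibitor acts on these mRNAs. Of 49 members, 4 fell, namely *Eif4e*, *Eif4a1*, *Eef1d* and *Eif5a*, beside 3.50% of the 9196 genes tested. *Eef1a2* rose as the single member of 49, where 4.96% of all genes did. At a 1.5-fold threshold 24 members were lower, 48.98% of them, beside 19.3% of all genes. The members' median log2 ratio was -0.55 and that of all genes -0.17.

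Much of that distance goes with expression level. The median log2 ratio without AA ran from 0.30 in the lowest expression decile to -0.58 in the highest. Within the highest decile the 29 members had a median of -0.64, and 16 of 29 were at least 1.5-fold lower, beside 49.8% of all genes of that decile. In the next decile the 9 members, *Eif4e*, *Eif2s1* and *Eif1ax* among them, had a median of -0.83, against -0.46 for its genes. Taking each member against the median of its own decile, the median difference over 49 members was -0.12 without AA and 29 lay below their decile, and over 48 members it was -0.02 with AA and 26 did. Nothing particular to translation factors is read from these values, and the comparison by decile was chosen after the values had been seen.

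In the presence of AA the pattern was similar. *Eef1d* fell as the single member of 48 tested, beside 3.38% of 9139 genes, and *Eef1a2* was again the single member that rose, beside 4.13%. At 1.5-fold 18 of 48 members were lower, beside 17.8% of all genes. In the highest decile the count was 11 of 29, beside 45.0%. The medians were -0.48 for members and -0.16 for all genes, and -0.51 against -0.53 within the highest decile. In the decile below it they were -0.72 for 9 members and -0.41 for its genes.

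**Figure D2:**
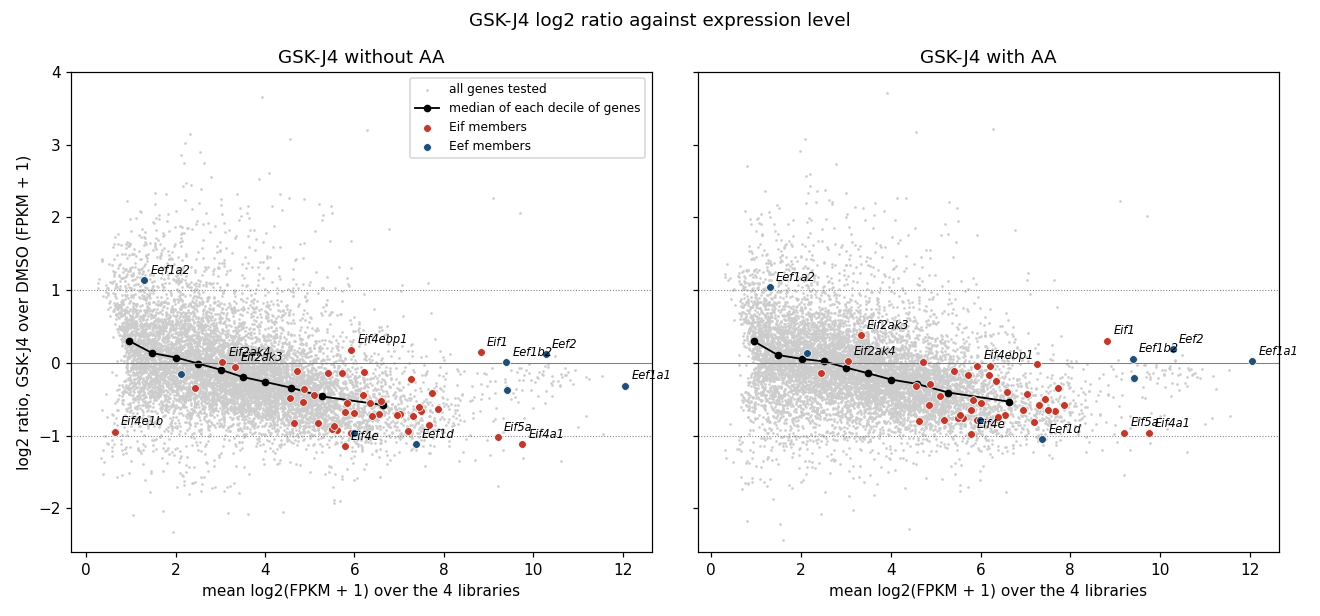
GSK-J4 log2 ratio on the (FPKM + 1) scale against mean log2(FPKM + 1), without AA (left) and with AA (right), for all genes tested (grey), *Eif* members (red) and *Eef* members (blue), with the median of each decile of genes in black and 2-fold limits dotted. The black line drops from left to right, and most members lie around it while *Eef2*, *Eef1b2* and *Eif1* lie above it.

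The calls depend on how the libraries are scaled. With log2 ratios centred on the median of all genes, with each library divided by its upper quartile, or with all libraries brought to the same total, 0 members were 2-fold lower in either comparison. Without AA 43 of 49 members were below 0 as deposited, and 37, 36 and 33 after those 3 steps. As deposited, 63.0% of all genes tested and 90.3% of those in the highest decile were below 0. With AA 40 of 49 members were below 0 when *Eif4e1b*, which was under the FPKM minimum there, is counted, and 35, 31 and 29 after the same steps. Ratios of one member to another within a library are free of that scale and are given below where they bear on a gene. Duplicate reads were removed by the authors, and what that did to the FPKM of the most abundant members, and so to these ratios, was not tested.

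Cap recognition held 2 of the 4 members that fell without AA. *Eif4e*, which binds the cap (chromosome 3, 138526076 to 138557813, mm10), was at 84.8, 37.7, 73.3 and 36.6 FPKM, with log2 ratios of -1.15 without and -0.98 with AA. Both GSK-J4 libraries lay below both DMSO libraries. *Eif4a1* (chromosome 11, 69666733 to 69672544) was at 1325, 609.7, 1159 and 595 FPKM, with ratios of -1.12 and -0.96. Of 13 listed eIF4F genes, their homologs and helpers, 8 had values, so the complex was measured in part. All 8 were below 0 without AA, as deposited and under each of the 3 rescalings, with a median of -0.77. With AA 7 of 7 tested were below 0 as deposited, 6 with upper quartiles or equal totals, with a median of -0.72. *Eif4h*, a helper of the helicase, and *Eif4g2*, a scaffold that lacks the cap-binding partner site, had the least negative ratios with AA among them, -0.40 and -0.25. *Eif4e1b* was at 1.18, 0.134, 0.920 and 0.246 FPKM, low in all libraries and lower in both with GSK-J4. *Eif4e2*, a cap-binding homolog of *Eif4e*, was the one member with several coding-sequence groups, and its 2 expressed groups went from 24.0 to 11.3 and from 25.3 to 16.0 FPKM without AA.

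The inhibitors of eIF4E were close to level as deposited. *Eif4ebp1* was at 55.2, 62.8, 62.0 and 60.4 FPKM and *Eif4ebp2* at 53.5, 48.4, 55.2 and 49.0. Their log2 ratios were 0.18 and -0.14 without AA and -0.04 and -0.17 with AA, none called. With equal totals they were 0.56 and 0.24 without AA and 0.29 and 0.16 with AA. The ratio of *Eif4e* to *Eif4ebp1* within a library was 1.54, 0.601, 1.18 and 0.606, so *Eif4e* was the higher of the pair in both DMSO libraries and the lower in both GSK-J4 libraries. The locus of *Eif4ebp1* in the tables is 3.56 times as long as the RefSeq gene, and what the extra length adds to its FPKM was not tested.

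The initiator tRNA carriers were below 0 in 3 of 3 cases as deposited and in 2 of 3 under each rescaling, where *Eif2d* was the exception. *Eif2s1*, the subunit that the kinases phosphorylate, was at 66.2, 34.3, 63.0 and 36.7 FPKM, with ratios of -0.93 and -0.77. *Eif2s3x*, the X-linked subunit that binds the tRNA, was at 279.9, 155, 247 and 155 FPKM, with ratios of -0.85 and -0.67. Neither was called, and the ratio of *Eif2s1* to *Eif2s3x* stayed between 0.222 and 0.255 in the 4 libraries. The 5 eIF2B genes had medians of -0.55 and -0.58, and *Eif2b5*, the catalytic subunit and the highest of them, was at 70.3, 43.5, 66.6 and 42.2 FPKM.

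The kinases that act on eIF2 were among the lower members. *Eif2ak4* (GCN2, which senses uncharged tRNA) was at 7.20, 7.28, 7.16 and 7.32 FPKM, with ratios of 0.01 and 0.03. *Eif2ak3* (PERK, which senses unfolded protein in the endoplasmic reticulum) was at 9.33, 8.88, 7.76 and 10.4 FPKM, with ratios of -0.06 and 0.38, and 0.28 and 0.68 with equal totals. Neither was called as deposited. The other 2 kinases of the family were not analysed here.

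Several genes known to act downstream of eIF2 phosphorylation differed between libraries by more than the kinases. Of 12 genes of an eIF2 signalling list, 5 rose without AA and 5 with AA, beside 4.96% and 4.13% of all genes. This list and the mTOR list below were chosen with earlier results of these data known, so their counts are descriptions. *Atf4*, the transcription factor translated when eIF2 is phosphorylated, was at 159, 257, 164 and 279 FPKM and was not called. *Ddit3* (CHOP, a stress transcription factor) was at 6.64, 63.7, 7.45 and 75.0 FPKM, with log2 ratios of 3.08 and 3.17. *Trib3*, a pseudokinase, had ratios of 2.52 and 2.08, and *Chac1*, which degrades glutathione, 2.07 and 1.85. mRNA levels do not measure phosphorylation. Of 14 mTOR signalling genes, 2 rose without AA and 1 with AA, against the same 4.96% and 4.13% of all genes. *Ddit4* (REDD1, an inhibitor of mTOR complex 1) was at 29.4, 279.8, 20.7 and 200.6 FPKM, with ratios of 3.21 and 3.22. *Mknk1*, a kinase of eIF4E, had ratios of 1.04 and 0.72, and *Rragd*, a GTPase of the amino acid branch, -0.97 and -0.64.

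**Figure D3:**
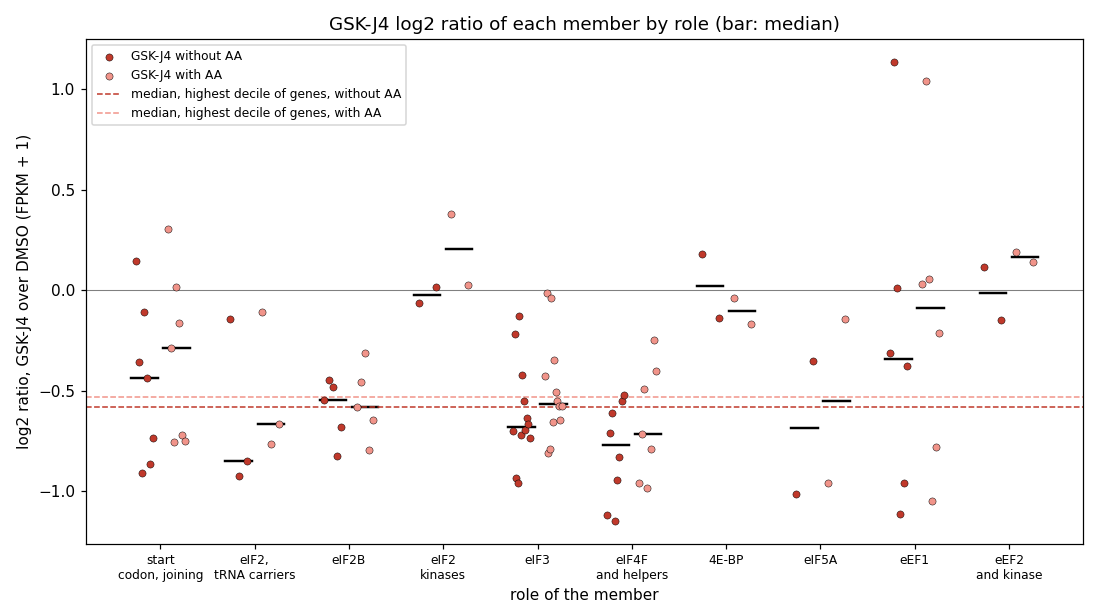
GSK-J4 log2 ratio on the (FPKM + 1) scale of each member by role, without AA (dark) and with AA (light), bars for medians, dashed lines for the medians of all genes in the highest decile of expression (-0.58 without and -0.53 with AA). The eIF4F group lies mostly below the dashed lines, and the eIF2 kinases, 4E-BP and eEF2 groups lie above them. Not all members belong to the highest decile. *Eif2ak4* and *Eif2ak3* are in deciles 5 and 6, whose medians without AA were -0.10 and -0.19, so the lines do not compare roles at like expression.

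Within eIF3, the scaffold that joins mRNA and small subunit, all 12 members with values were below 0 in both comparisons as deposited, and 10 of 12 were with equal totals. Beside these, 90.3% and 89.1% of genes in the highest expression decile were below 0 as deposited, without and with AA. The medians were -0.68 without and -0.57 with AA, and none was called. *Eif3e* had the lowest ratio without AA, -0.96, at 84.4, 42.9, 77.7 and 44.5 FPKM. *Eif3f* was close to level at 77.2, 70.4, 73.3 and 71.2 FPKM. The ratio of *Eif3e* to *Eif3f* within a library was 1.09, 0.609, 1.06 and 0.625, so the 2 mRNAs of one complex had unequal ratios. *Eif3k*, the highest of them, was at 294, 189, 278 and 186 FPKM.

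Of 7 members in start codon recognition and subunit joining, 6 were below 0 without AA, all but *Eif1*, and 5 with AA, as deposited. Beside them, 63.0% and 62.2% of all genes were below 0. *Eif1*, which keeps the scanning subunit open until the start codon, was at 443, 489.8, 396 and 490.2 FPKM, with ratios of 0.15 and 0.31. *Eif1ax*, its X-linked partner in scanning, was at 64.5, 33.9, 55.2 and 32.3 FPKM, with ratios of -0.91 and -0.76. The ratio of *Eif1ax* to *Eif1* was 0.146, 0.0692, 0.139 and 0.0659. *Eif5a*, which helps ribosomes through stalling sequences (chromosome 11, 69914008 to 69921709), was at 873, 431, 793 and 407 FPKM, with ratios of -1.02 and -0.96. Its paralog *Eif5a2* was at 5.53, 4.11, 4.36 and 3.86 FPKM.

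The *Eef* members ran from -1.12 to 1.14 without AA, and the *Eif* members from -1.15 to 0.18. The upper end of the *Eef* range was *Eef1a2* alone, low in all libraries, and the next ratio below it was 0.12, of *Eef2*. *Eef1d*, an exchange factor for eEF1A (chromosome 15, 75894748 to 75909390), was at 243, 112, 238 and 114 FPKM, with ratios of -1.12 and -1.05. *Eef1b2*, the other exchange subunit, was at 679, 683, 649.7 and 676 FPKM, with ratios of 0.01 and 0.06. The ratio of *Eef1d* to *Eef1b2* was 0.358, 0.163, 0.366 and 0.169, with the 2 DMSO libraries alike and the 2 GSK-J4 libraries alike. The locus given for *Eef1b2* is 10.1 times as long as the RefSeq gene. What the extra length adds to its FPKM, and so to ratios to *Eef1b2*, was not tested. In all 7 members had a locus over 1.5 times the RefSeq length. *Eef1g*, the structural subunit, had ratios of -0.38 and -0.21, and *Eef1e1*, a scaffold protein of the tRNA synthetase complex, -0.96 and -0.78. *Eef1a1* was at 4789.9, 3855, 4182 and 4265 FPKM, with ratios of -0.31 and 0.03, and of 0.07 and 0.36 with equal totals. *Eef1a2* (chromosome 2, 181147971 to 181157015) was at 0.794, 2.94, 0.584 and 2.26 FPKM, with ratios of 1.14 and 1.04. Its call was lost at a pseudocount of 5 and with stricter filters on low values. *Eef2* was at 1203, 1303, 1159 and 1323 FPKM, with ratios of 0.12 and 0.19, and its kinase *Eef2k* at 3.51, 3.06, 3.27 and 3.71. The ratio of *Eif4a1* to *Eef2* was 110.2%, 46.8%, 99.98% and 44.98%. RefSeq names pseudogenes for *Eef1a1*, *Eif1*, *Eef2*, *Eif2s3x* and *Eif5a*, so reads of those genes may be shared with copies.

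**Figure D4:**
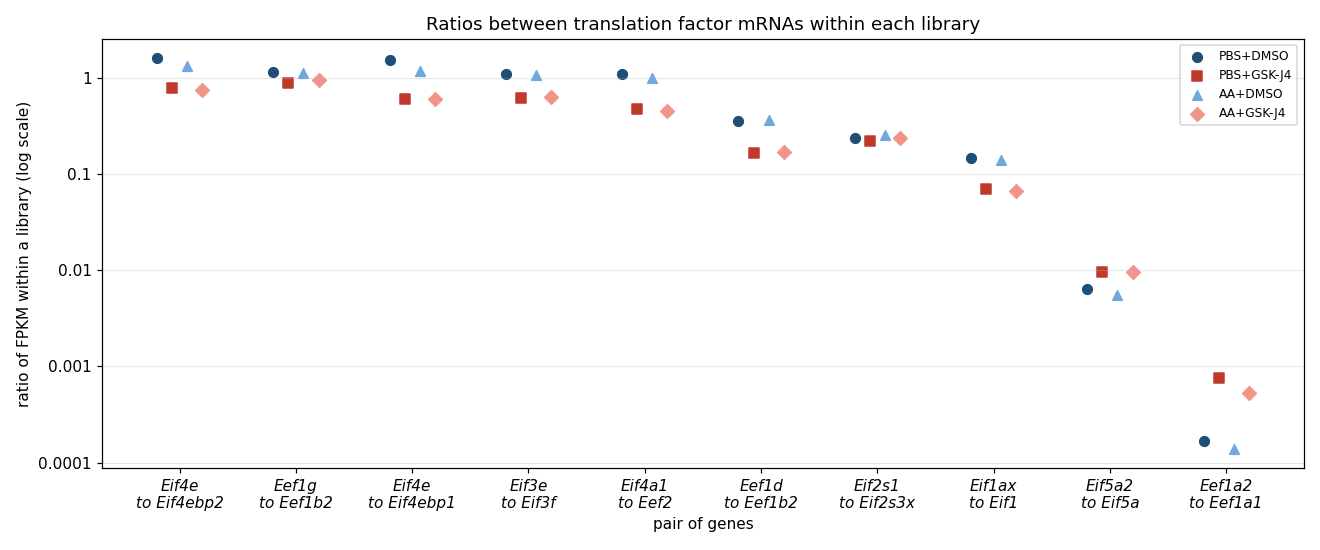
Ratio of FPKM within each library (log axis) for 10 pairs of members, 1 marker per library. The GSK-J4 markers lie below the DMSO markers for *Eif4e* to *Eif4ebp1*, *Eif4a1* to *Eef2*, *Eef1d* to *Eef1b2* and *Eif1ax* to *Eif1*, above them for the 2 pairs of paralogs on the right, and close to them for *Eif2s1* to *Eif2s3x*.

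The 10 pairs were chosen after the values had been seen, so their size is a description. Pair ratios and their log2 changes are of FPKM without the pseudocount, unlike the other ratios. The log2 changes without and with AA of the pairs not yet given were *Eif4e* to *Eif4ebp2* (-1.02 and -0.83), *Eef1a2* to *Eef1a1* (2.20 and 1.92), *Eif5a2* to *Eif5a* (0.59 and 0.78) and *Eef1g* to *Eef1b2* (-0.39 and -0.27). The change of *Eef1a2* to *Eef1a1* rests on 0.794 and 0.584 FPKM of *Eef1a2* in PBS+DMSO and AA+DMSO.

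Start-site sequence was read for the members with a RefSeq window. RefSeq windows (GRCm38.p6, 250 bases before to 50 after an annotated start) were given for 39 of 49 members. The 6 motifs searched on both strands were chosen after member values and some of these sequences had been seen. TATANAA was in 11.3% of all windows, 5.86% of tested genes and 4 of 39 members, *Eef1a1*, *Eef2*, *Eif1* and *Eif3c*, whose log2 ratios ran from -0.31 to 0.15 without AA. The first 3 are shown as the highly expressed members whose motif lies within 30 bases of the start, 5′ to 3′ on the gene's strand with the motif in capitals, from chr9:78481683-78481712 (minus), chr10:81176605-81176634 (plus) and chr11:100319945-100319974 (plus). The motif begins at 23, -15 and 7 counted from the annotated start, and that of *Eif3c* at -229 on the other strand.
Eef1a1: ggggagaacggTATATAAgtgcggcagtcg
Eef2: cggcgtcgaccTATAAAAggccgggcgttg
Eif1: acaggggcggcTATATAAgtgaatacaggc

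CACGTG, the E-box, was in 7.15% of all windows, 12.5% of tested genes and 11 of 39 members. It was present in *Eif4e*, *Eif4a1* and *Eif5a*, which fell without AA, and also in *Eef2*, which was not called. *Eef1d*, the other member that fell, had no window. The 11 members with it had a median log2 ratio of -0.52 without AA and the members without it -0.64. The windows are from chr3:138527193-138527222 (plus), chr11:69672594-69672623 (minus), chr11:69921442-69921471 (minus) and chr10:81176577-81176606 (plus), with the E-box in capitals.
Eif4e: gacacgtccgtCACGTGggcaggagccggc
Eif4a1: gatcgcctccgCACGTGtaaaggtgctggg
Eif5a: aggggcggggtCACGTGtgtgcgtcatccg
Eef2: cccggcgccgtCACGTGacgcacccaaccg

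The other 4 motifs were TGATGNAA (3.97% of windows, 2.44% of tested genes, 2 of 39 members), TGACGTCA (1.79%, 3.68% and 1 of 39), CCGGAAGT (3.89%, 9.63% and 8 of 39) and CTCTTTC (8.16%, 8.02% and 3 of 39). A match is a string of letters and not a measured site, and no enrichment was tested.

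Other genes of translation were set beside the members. Of all genes tested, 63.0% without and 62.2% with AA were below 0 as deposited, and 90.3% and 89.1% of those in the highest decile. Of 16 further cytosolic translation factors, 15 were below 0 in each comparison as deposited, with medians of -0.57 and -0.49. *Gspt1*, a release factor, fell with AA as the single call among the 16, beside 3.38% of all genes, with ratios of -0.98 and -1.24. *Etf1*, the other release factor, had -0.99 and -0.82, and *Abcf1*, which aids initiation, -0.92 and -0.87. All 9 mitochondrial translation factors were below 0 in both as deposited, with medians of -0.47 and -0.43, and *Gfm2*, *Tufm* and *Gfm1*, an elongation or recycling factor each, had -0.92, -0.80 and -0.67 without AA. The 71 cytosolic ribosomal protein genes had medians of -0.24 and -0.19.

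The libraries with AA were compared with those without it, across 2 tables that may have been normalised separately. None of 48 members differed 1.5-fold in DMSO, where 4.31% of all genes did, and none of 48 in GSK-J4, where 4.25% did. The members' medians were -0.09 and 0.01. *Eif5a2*, *Eif1ax* and *Eif4h* had the largest mean AA ratios in size among members that reached an FPKM of 5 in at least 1 library, with -0.28, -0.22 and -0.20 in DMSO and -0.07, -0.07 and -0.08 in GSK-J4.

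The GSK-J4 ratios without and with AA come from separate libraries. Over 49 members their Spearman correlation was 0.954 and Pearson's r 0.961, as a description over genes, which are not independent replicates, and over all 9363 genes Spearman's value was 0.826. Of 49 members, 44 (89.8%) had the same sign and 42 (85.7%) the higher ratio with AA, beside 85.2% and 55.7% of all genes. Of the members 38 lay in the highest 2 deciles of expression, and none of these values was computed for all genes of that level. The ratio was more positive with AA for *Eif2ak3*, *Eef1a1* and *Eif4g2*, by 0.44, 0.34 and 0.30, and more negative for *Eif4ebp1*, *Eif2b1* and *Eif4ebp2*, by 0.22, 0.04 and 0.03. These differences have no replicate check and were not tested.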

How the data were processed

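Total RNA was sequenced from 4 conditions, 1 library each. Per the labels and the methods, the authors removed duplicate single-end reads, aligned them with TopHat (version 2) to mm10, estimated expression with Cufflinks and handled it with CummeRbund. The 2 deposited tables hold FPKM per coding-sequence group in columns whose header names log10, which the values show to be linear. FPKM was summed per gene, and genes with a failed estimate (157) were left out. Read counts were not used here. A search for the worth of 1 read in low values, set up after the values were seen, rested on 41 to 204 genes per pair of libraries, and no depth was taken from it.

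Log2 ratios took a pseudocount of 1 and genes reaching an FPKM of 1 in at least 1 of the compared libraries. The counting of fold calls was tested on simulated data, which gives no error rate for the calls. Python 3.11.15, numpy 2.4.6, pandas 2.3.3 and matplotlib 3.10.9 were used. Members and lists were chosen with earlier results of these data known. Genes named are the eIF2 kinases and 4E-BPs, members past 2-fold, the 5 largest mean GSK-J4 ratios each way, the 3 largest differences by AA each way, the 3 largest AA ratios, the highest of each role, paralogs, and the 3 largest of each pathway list. Others named were chosen after their values were seen.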

Additional observations from a re-analysis of the deposited data

Results flagged for a closer look

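GSK-J4 ratios of opposite sign without and with AA were found for 5 members, each from 1 library per condition, so none of these differences was tested. The opposite signs hold on the deposited scale: after median centring *Eef1a1* alone kept them (-0.14 and 0.18), and with equal totals all 5 were above 0 in both. The ratio with AA minus that without was 0.44 for *Eif2ak3*, 0.34 for *Eef1a1*, 0.29 for *Eef2k*, 0.12 for *Eif1b* and -0.22 for *Eif4ebp1*. The members' median AA ratio also changed sign, and was 0.10 higher in GSK-J4 than in DMSO, across 2 tables that may have been normalised separately. This difference was not tested.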

How the results depend on the processing

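No paired analysis was possible because each condition has 1 library and the labels give no replicate numbers. The 2 GSK-J4 comparisons are given side by side, and no additive fit over the 4 libraries was run. The median of all genes shifted by 0.24 and 0.22 (without and with AA) with upper quartiles and by 0.33 and 0.29 with equal totals, and higher genes made up 58.6% of called genes as deposited without AA, 84.4% with upper quartiles and 89.3% with equal totals (55.0%, 81.9% and 86.3% with AA). Members 2-fold lower were 0 in both comparisons after median centring, upper quartiles and equal totals, and 2 with AA at a pseudocount of 0.1. Members 2-fold higher were 0 in both at a pseudocount of 5, with an FPKM minimum of 5 in 1 of the libraries and with a minimum of 1 in both. At 1.5-fold, 24 and 18 were lower. The members' median was -0.38 and -0.32 after median centring, -0.27 and -0.22 with upper quartiles, and -0.17 and -0.15 with equal totals. The other alternatives moved no count of members by over 1.5 times. The members' median kept its sign, while the median of all genes turned from -0.17 to 0.07 and 0.16 without AA and from -0.16 to 0.07 and 0.14 with AA, under upper quartiles and equal totals. The cause of these moves was not tested. A median counted as moved past 0.1, a tolerance set for this work. Depth is unknown, and so is its part in low values.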

Other observations

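*Eif4enif1*, the transporter of eIF4E into the nucleus, was left out because its estimate failed in the table with AA. In the other table its FPKM was 15.7 with DMSO and 0.777 with GSK-J4, and both of its coding-sequence groups were lower. The smaller group was at 0.000604 FPKM in PBS+GSK-J4, and how reliable that estimate is was not tested. No ratio with AA is given.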
